A study of Mus musculus with 9 samples.

Results

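The genes described here are 45 mouse genes of the germline and of meiosis, of 37990 genes listed in each deposited count table. The rule that names them uses gene symbols and no measured value, but they were chosen with earlier results of these data known. They fall into 13 genes of the piRNA pathway, 19 genes of the synaptonemal complex and meiotic recombination, and 13 other germ cell genes. Their RNA was measured by sequencing total RNA of E14 embryonic stem cells, a mouse line grown in serum with leukaemia inhibitory factor, in 9 libraries of 3 groups. All cells had been transduced with a lentiviral pLKO.1 vector, selected with puromycin and passaged before harvest. The vector carried a short hairpin RNA against Fam60a in the first group and against Sin3a in the second. The titles and the header lines of the first group name it differently, and both were taken to mean the Fam60a knockdown. The control group is named only T2SC in its titles, and was taken by elimination to be the cells with the scrambled hairpin that the labels describe. Each group holds 3 libraries, called biological replicates in the labels, of unsorted cells, so a lower value can mean fewer cells of a type or less RNA per cell, and these cannot be told apart.

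Sin3a scaffolds a corepressor complex that holds histone deacetylases, and Fam60a, named Sinhcaf in the GENCODE M21 annotation, is one of its subunits. Germ cells silence transposons with piRNAs, small RNAs bound by PIWI proteins and processed with the help of Tudor domain proteins and RNA helicases. In meiosis, chromosomes are organised by meiotic cohesins and an axis, cut by the Spo11 machinery, and held together by the synaptonemal complex while breaks are repaired into crossovers. In embryonic stem cells many of these genes are held low by DNA methylation and by a Polycomb complex that contains the DNA-binding proteins E2F6, MGA and MAX, which recognise E2F sites and E-boxes.

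The libraries held 2607872 to 7674887 reads, the lowest in Sin3a knockdown replicate 3, and 3 reads corresponded to 0.391 to 1.15 CPM (counts of a gene divided by the scaled library total). The targeted genes were lower in all libraries of their own knockdown. Fam60a stood at 13.4, 14.02 and 13.1 CPM in control libraries and 5.59, 6.54 and 5.06 CPM in its knockdown (adjusted p = 0.028, edgeR quasi-likelihood test with Benjamini-Hochberg adjustment, as for every adjusted p here unless another tool is named). Sin3a stood at 311, 281 and 268 CPM in control libraries and 131, 136 and 110.5 CPM in its knockdown (adjusted p = 0.00149). Sin3a knockdown replicate 3 stood apart, with a mean correlation of 0.885 with its group against 0.935 to 0.981 for the other libraries, and counts of called genes, and values that it moves most, are given with and without it. Same-numbered libraries of different groups also deviated together, and a model with that number as a block (the replicate block) is quoted wherever it changes a call.

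In control cells each of the 45 genes had at least 1 read, at levels spread over more than 3 orders of magnitude. Levels between genes were compared as CPM per kilobase of exon. The median over the 45 genes was 6.53, against 10.9 over the 14132 tested genes with a known length, and 37 of 45 were at 1 or above. Tex19.1, a gene of transposon control in germ cells and placenta, had the highest level at 50.1 ± 4.54 (SD, n = 3), followed by the ribosomal retrogene Rpl10l at 47.2 ± 2.83 and the cohesin subunit Stag3 at 43.6 ± 6.79. These 3 overlapped between libraries and could not be ordered. Next came the central element genes Syce1 (33.2 ± 1.01) and Syce2 (28.8 ± 2.61) with the piRNA factor Mael (31.0 ± 4.87) between them, whose libraries overlapped both. The lowest were Spo11, which encodes the enzyme that makes meiotic breaks, at 0.0123, and the Tudor gene Tdrd6 at 0.0557. These 2 and Meiob (0.393), a single-strand DNA-binding protein of recombination, did not pass the filter on low counts and were not tested. Over the 3 libraries of each group, Spo11 had 1 read in control cells, 3 after Fam60a knockdown and 0, which allows up to 3, after Sin3a knockdown. The reads were 8, 2 and 14 for Tdrd6 and 14, 9 and 7 for Meiob in the same order.

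**Figure D1:**
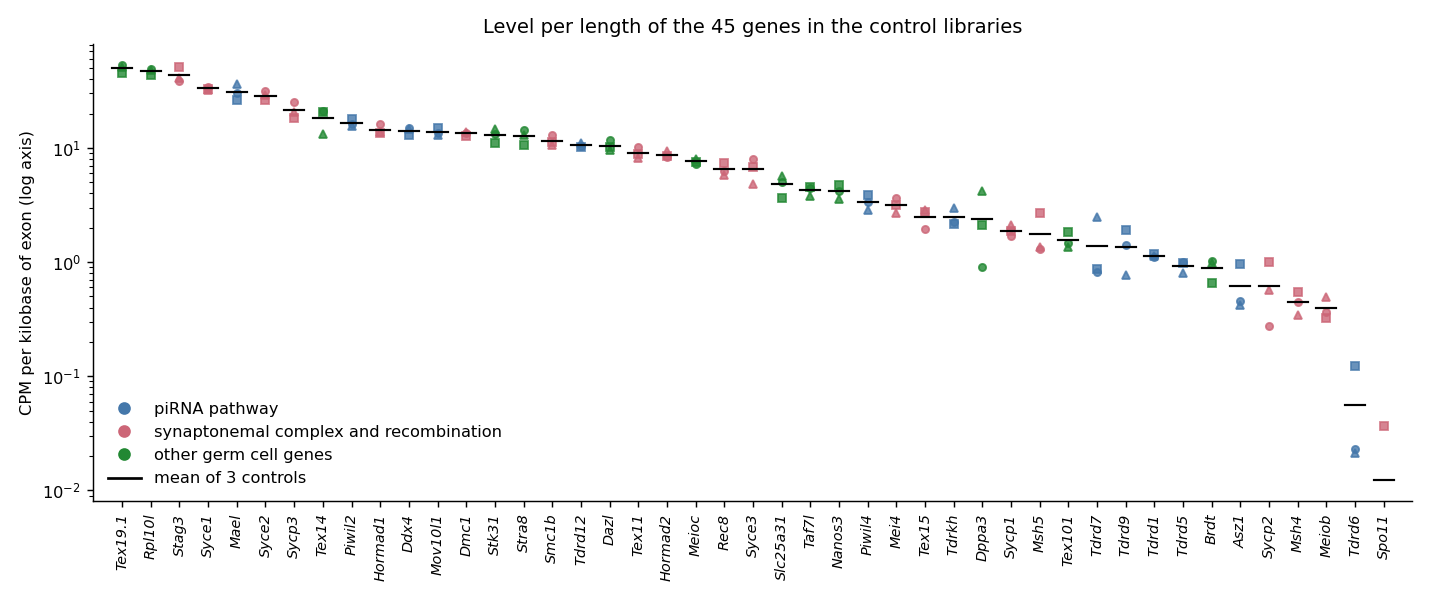
Level of each of the 45 genes in the 3 control libraries, as CPM per kilobase of exon on a log axis, coloured by list, with the mean as a black line. A library with no read of a gene has no point. Tex19.1, Rpl10l and Stag3 sit highest and Tdrd6 and Spo11 lowest.

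The promoter windows of these genes were read for the sites that the Polycomb complex above is known to recognise. RefSeq (GRCm38.p6) gave windows of 300 bases, 250 before and 50 from the start site on, for 38 of the 45 genes. The E-box CACGTG, which reads the same on both strands, was present in 14 of 38 genes (36.8%), against 11.7% of 10826 tested genes with a window and 8.09% of all 27025 genes in the table. GCGGGA, a core of E2F sites searched on both strands as GCGGGA or TCCCGC, was present in 17 of 38 (44.7%), against 40.3% of the tested genes and 22% of all genes. The median number of CG dinucleotides in a window was 19 for the 48 windows of these genes, 20 for tested genes and 7 for all. The E2F core was thus near the share in tested genes, and the E-box above it, as a description of these letters only. The matches of the 2 motifs overlapped in 0 of 48 windows.

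In the Fam60a knockdown, 1 of 42 tested genes fell and 0 rose at an adjusted p under 0.05, with edgeR. Over all 14465 tested genes 1.44% fell and 1.49% rose. The gene that fell was Tdrd12. At an unadjusted p under 0.05, 6 of the 42 were lower and 4 higher, against 7.68% and 8.03% of all tested genes, and DESeq2 called 6 lower and 3 higher, against 3.91% and 4.27% of all genes. With the replicate block 4 genes fell, against a background of 2.72%, and 1 rose, against 3.41%. Those that fell were Piwil4, Rpl10l, Smc1b and Tdrd12, and Slc25a31 rose. Without Sin3a knockdown replicate 3, which also enters the shared estimate of spread, 9 fell against a background of 7.77% and 3 rose against 9.16%. The 9 were Hormad1, Mei4, Meioc, Piwil4, Rpl10l, Smc1b, Stra8, Tdrd12 and Tdrkh, and the 3 were Slc25a31, Taf7l and Tex15. The median log2 fold change was -0.166 over the 42 genes and -0.021 over all tested genes.

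In the Sin3a knockdown, Tdrd12, Hormad2 and Mei4 fell and Slc25a31 and Taf7l rose. The background was 6.28% fallen and 3.91% risen, against 3 and 2 of 42, so the shares of these genes were near those of all genes. At an unadjusted p under 0.05, 6 were higher and 6 lower, against 12% and 13.8% of all tested genes, and DESeq2 called 4 and 4, against 8.19% and 9.18%. With the replicate block Tex14 also fell and Sycp2 and Tdrd7 also rose, which gave 4 fallen against a background of 8.63% and 4 risen against 6.33%. Without Sin3a knockdown replicate 3, 4 fell against 13.5% and 7 rose against 11%. The 4 were Hormad2, Mei4, Rec8 and Tdrd12, and the 7 were Dazl, Mael, Slc25a31, Syce1, Sycp1, Taf7l and Tex15. The median log2 fold change of the 42 genes was -0.251 with all libraries and -0.010 without that library, against -0.012 and -0.008 for all genes. Both knockdowns were compared with the same 3 control libraries.

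**Figure D2:**
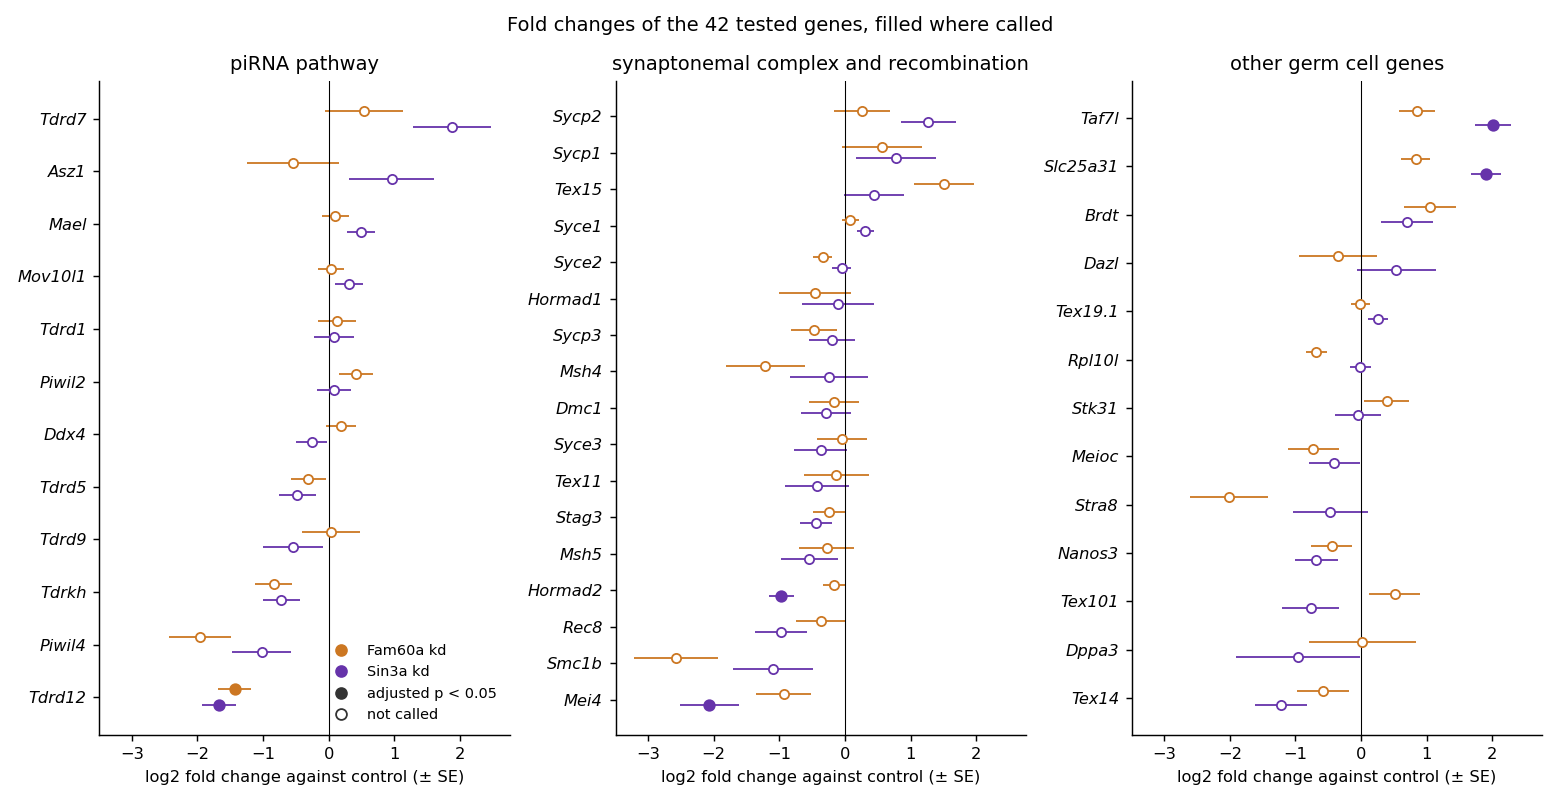
Log2 fold change against control (x axis, bars are SE) of the 42 tested genes in the Fam60a knockdown and the Sin3a knockdown, by list and ordered by the Sin3a value. Filled points have an adjusted p under 0.05, and Tdrd12 is filled in both groups.

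Of the piRNA pathway genes, Tdrd12 was lower in every knockdown library. It encodes a Tudor domain protein needed to make piRNAs, at chr7:35469098-35537745 on the minus strand (GRCm38, GENCODE M21). It measured 45.1, 44.5 and 47.7 CPM in control cells, 17.5, 20.5 and 12.7 CPM in the Fam60a knockdown and 17.1, 15.6 and 9.75 CPM in the Sin3a knockdown. The control libraries lay within a narrow band and neither knockdown overlapped them. The mean was 36.9% of control in the Fam60a knockdown (log2 fold change -1.43 ± 0.25 SE, adjusted p = 0.0222) and 30.9% in the Sin3a knockdown (-1.67 ± 0.26 SE, adjusted p = 0.00653). The Sin3a call held in 18 of 18 alternative analyses. The Fam60a call was lost when any single Fam60a knockdown or control library was left out (adjusted p = 0.0617 to 0.101). Since Tdrd12 fell in both groups, its promoter window is shown, at chr7:35537666-35537965 on the minus strand. It holds neither motif, so it has no capitals.
Tdrd12: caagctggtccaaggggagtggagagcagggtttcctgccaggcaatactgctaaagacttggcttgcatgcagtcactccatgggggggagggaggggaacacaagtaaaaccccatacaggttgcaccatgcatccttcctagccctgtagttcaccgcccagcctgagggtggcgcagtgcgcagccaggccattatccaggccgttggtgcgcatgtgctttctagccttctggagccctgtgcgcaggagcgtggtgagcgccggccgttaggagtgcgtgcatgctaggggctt

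Piwil4, the nuclear PIWI protein that guides transposon methylation in fetal male germ cells, measured 18.1, 20.96 and 15.5 CPM in the controls. Its level was 6.80, 5.65 and 1.42 CPM after Fam60a knockdown and 9.91, 9.66 and 6.91 CPM after Sin3a knockdown. All 6 knockdown libraries were below all controls, with Fam60a knockdown replicate 3 lowest. The log2 fold changes were -1.96 ± 0.47 SE (adjusted p = 0.062, and 0.0283 with the replicate block) and -1.02 ± 0.45 SE (adjusted p = 0.195), so the Fam60a value passed with the block and not without it. Piwil2, the cytoplasmic PIWI protein, had the higher level per length in the controls (16.6 against 3.38 CPM per kilobase of exon). It measured 85.7, 94.98 and 81.9 CPM among control replicates, 120.1, 139 and 89.96 CPM in the Fam60a knockdown and 107, 113 and 55.2 CPM in the Sin3a knockdown. Its first and second replicates were above all controls in both knockdowns, and Sin3a knockdown replicate 3 was below them. It did not pass in either (log2 fold change 0.41 ± 0.26 SE, adjusted p = 0.558, and 0.08 ± 0.26 SE, adjusted p = 0.872).

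Tdrd7, a Tudor protein of the germ cell RNA granule, measured 3.26, 3.47 and 9.83 CPM in control libraries, 7.86, 7.19 and 9.17 CPM in the Fam60a knockdown and 11.7, 11.3 and 39.8 CPM in the Sin3a knockdown. Replicate 3 was the highest library of every group, and the Sin3a libraries were all above the controls. For the Sin3a knockdown the log2 fold change was 1.88 ± 0.60 SE (adjusted p = 0.0828, 0.0177 with the replicate block, and 0.109 with a log2 fold change of 1.06 without Sin3a knockdown replicate 3). The Fam60a value was 0.54 ± 0.59 SE (adjusted p = 0.84).

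Mael, a piRNA factor with a nuclease-like fold, measured 52.5, 45.97 and 62.7 CPM in control cells, 65.3, 50.9 and 56.3 CPM in the Fam60a knockdown and 83.4, 87.3 and 54.03 CPM in the Sin3a knockdown. Sin3a knockdown replicates 1 and 2 were the highest of the 9 libraries and replicate 3 lay among the controls. The log2 fold change in the Sin3a knockdown was 0.49 ± 0.21 SE (adjusted p = 0.184), and 0.67 without replicate 3 (adjusted p = 0.0108). For the Fam60a knockdown it was 0.10 ± 0.21 SE (adjusted p = 0.96). Ddx4, the germ cell RNA helicase also called Vasa, measured 44.96, 39.5 and 44.4 CPM among control replicates, 52.6, 44.4 and 49.8 CPM in the Fam60a knockdown and 45.6, 38.4 and 22.3 CPM in the Sin3a knockdown. The groups overlapped except for Sin3a knockdown replicate 3, which was the lowest library. It did not pass in the Fam60a knockdown (0.19 ± 0.23 SE, adjusted p = 0.888) or the Sin3a knockdown (-0.26 ± 0.24 SE, adjusted p = 0.526).

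The other 6 tested piRNA genes were Tdrd1, Tdrd5, Tdrd9, Tdrkh, Asz1 and Mov10l1. Their log2 fold changes ran from -0.84 (Tdrkh) to 0.12 (Tdrd1) in the Fam60a knockdown, with adjusted p from 0.165, and from -0.72 (Tdrkh) to 0.96 (Asz1) in the Sin3a knockdown, with adjusted p from 0.145. Tdrkh, a mitochondrial Tudor protein needed for piRNA trimming, shares 2255 of its 6142 exon bases with Oaz3 on the opposite strand, which had 1 read over the 9 libraries. Of 12 tested piRNA genes, 7 had a positive and 5 a negative fold change with Fam60a knocked down, and 6 and 6 with Sin3a knocked down.

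**Figure D3:**
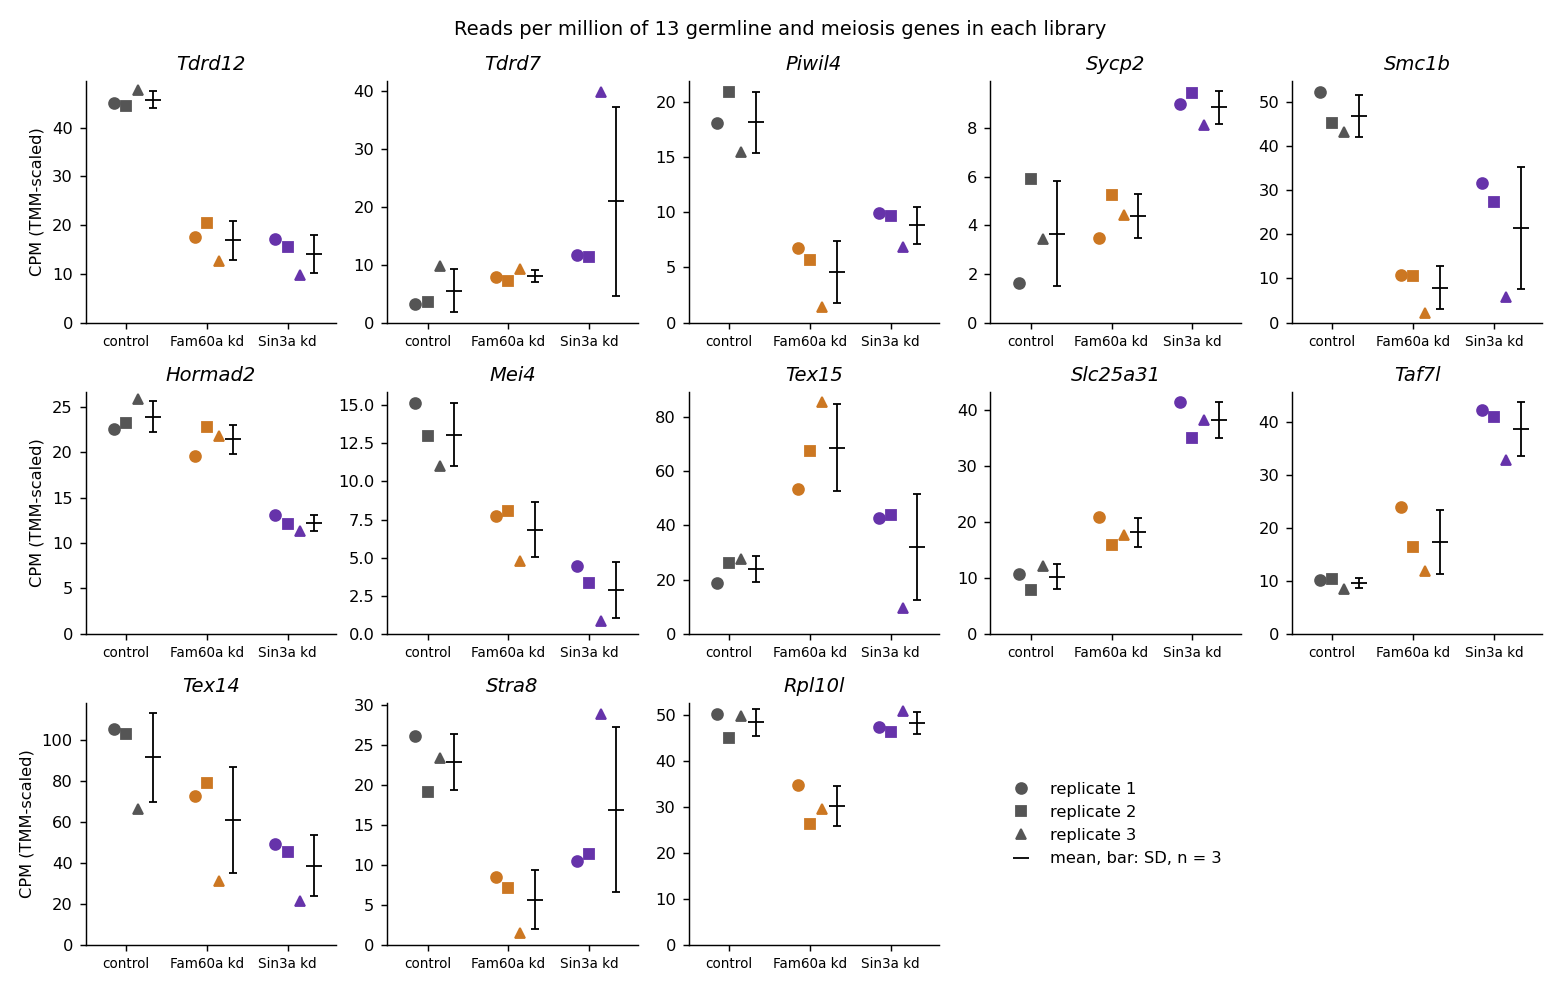
CPM of 13 genes in each library (symbols are replicates 1 to 3), with the mean and SD of each group beside them (n = 3) and y axes that start at 0. Slc25a31 and Taf7l are highest in the Sin3a knockdown, and Tdrd12 is lower in both knockdowns than in every control.

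Among the genes of chromosome structure, Smc1b had the lowest log2 fold change of the 42 genes in the Fam60a knockdown. It encodes a meiotic cohesin subunit at chr15:85064689-85131964 on the minus strand. It measured 52.3, 45.2 and 43.2 CPM in control libraries, 10.7, 10.7 and 2.21 CPM in the Fam60a knockdown and 31.6, 27.3 and 5.69 CPM in the Sin3a knockdown. The 3 groups did not overlap for replicates 1 and 2, and replicate 3 was the lowest library in every group. The Fam60a knockdown mean was 16.8% of control (log2 fold change -2.57 ± 0.64 SE), which passed with the replicate block (adjusted p = 0.0269) but not without it (adjusted p = 0.0723). For the Sin3a knockdown the log2 fold change was -1.09 ± 0.61 SE (adjusted p = 0.301, and 0.099 with the block). Stag3, another meiotic cohesin subunit, measured 219.8, 294 and 237 CPM in control cells, 204, 254 and 179 CPM in the Fam60a knockdown and 188, 245 and 120.2 CPM in the Sin3a knockdown. Its groups overlapped, and it did not pass (-0.24 ± 0.25 SE, adjusted p = 0.819, and -0.44 ± 0.25 SE, adjusted p = 0.307).

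Hormad2, a protein of the chromosome axis that monitors synapsis, fell in the Sin3a knockdown. It lies at chr11:4345814-4441105 on the minus strand and measured 22.6, 23.3 and 25.9 CPM among control replicates, 19.6, 22.8 and 21.8 CPM in the Fam60a knockdown and 13.1, 12.1 and 11.4 CPM in the Sin3a knockdown. The Sin3a libraries, replicate 3 included, were within 2 CPM of each other and below all other libraries. The mean was 50.9% of control (log2 fold change -0.97 ± 0.19 SE, adjusted p = 0.0135). It did not pass with Fam60a knocked down (-0.16 ± 0.18 SE, adjusted p = 0.851). Leaving out any control library raised the adjusted p of the Sin3a call to between 0.0558 and 0.0592, leaving out Sin3a knockdown replicate 2 gave 0.0556, and a fit of only those 6 libraries gave 0.0529.

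Mei4, a partner in the formation of meiotic breaks, had the largest called fall in the Sin3a knockdown among these genes. It lies at chr9:81863670-82206007 on the plus strand and measured 15.2, 13.01 and 11.03 CPM in control libraries, 7.70, 8.08 and 4.74 CPM in the Fam60a knockdown and 4.42, 3.34 and 0.812 CPM in the Sin3a knockdown. The 3 groups did not overlap, although Fam60a knockdown replicate 3 was close to Sin3a knockdown replicate 1. The Sin3a knockdown mean was 21.9% of control (log2 fold change -2.07 ± 0.45 SE, adjusted p = 0.023), and the Fam60a knockdown mean 52.4% (-0.93 ± 0.42 SE, adjusted p = 0.329). The value of 0.812 CPM in Sin3a knockdown replicate 3 lay below the level of 3 reads in that library. Without it the Sin3a log2 fold change was -1.73 (adjusted p = 0.00523). The Sin3a call was lost without control replicate 1 (adjusted p = 0.083), control replicate 2 (0.0736) or Sin3a knockdown replicate 2 (0.0618), and in a fit of the 6 libraries of that comparison (0.0625). The windows of these 3 genes are shown because they were called in different knockdowns (Smc1b with the replicate block), with matches to GCGGGA or its reverse complement in capitals. They lie at chr15:85131908-85132207 (minus strand), chr11:4441033-4441332 (minus strand) and chr9:81863420-81863719 (plus strand). Smc1b has 1 match, 47 bases before the start site, and the other two have no match to either motif.
Smc1b: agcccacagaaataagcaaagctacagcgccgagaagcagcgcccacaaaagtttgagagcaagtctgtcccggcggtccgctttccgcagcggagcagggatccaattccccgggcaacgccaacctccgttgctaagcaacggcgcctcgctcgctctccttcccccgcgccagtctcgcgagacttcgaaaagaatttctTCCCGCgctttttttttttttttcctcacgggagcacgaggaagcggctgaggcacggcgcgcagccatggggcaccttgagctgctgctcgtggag
Hormad2: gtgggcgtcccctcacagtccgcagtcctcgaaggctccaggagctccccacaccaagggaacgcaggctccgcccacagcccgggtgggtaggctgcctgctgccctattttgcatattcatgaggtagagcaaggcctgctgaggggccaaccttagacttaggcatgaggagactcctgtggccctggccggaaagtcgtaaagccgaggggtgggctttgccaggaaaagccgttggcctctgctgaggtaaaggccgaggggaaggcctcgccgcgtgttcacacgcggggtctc
Mei4: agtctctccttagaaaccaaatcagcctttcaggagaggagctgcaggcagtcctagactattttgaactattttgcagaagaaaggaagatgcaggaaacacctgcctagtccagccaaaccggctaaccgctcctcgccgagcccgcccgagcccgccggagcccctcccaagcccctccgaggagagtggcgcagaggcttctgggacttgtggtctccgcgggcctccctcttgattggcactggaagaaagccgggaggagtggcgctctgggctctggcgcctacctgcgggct

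Sycp2, a component of the lateral elements of the synaptonemal complex, measured 1.63, 5.93 and 3.43 CPM in control cells, 3.47, 5.26 and 4.43 CPM in the Fam60a knockdown and 8.99, 9.47 and 8.12 CPM in the Sin3a knockdown. The Sin3a libraries were above all others and close together, while the controls differed among themselves. The log2 fold change in the Sin3a knockdown was 1.27 ± 0.42 SE (adjusted p = 0.0943, and 0.0448 with the replicate block). For the Fam60a knockdown it was 0.26 ± 0.42 SE (adjusted p = 0.938). Tex15, known for meiotic break repair and for silencing transposons with piRNAs, measured 18.6, 26.2 and 27.4 CPM among control replicates, 53.3, 67.4 and 85.4 CPM in the Fam60a knockdown and 42.7, 43.8 and 9.34 CPM in the Sin3a knockdown. All Fam60a libraries and Sin3a replicates 1 and 2 were above the controls, and Sin3a replicate 3 was below them. The Fam60a log2 fold change was 1.51 ± 0.46 SE (adjusted p = 0.129, and 0.00188 without Sin3a knockdown replicate 3). The Sin3a value was 0.44 ± 0.46 SE (adjusted p = 0.583), and 0.84 without that replicate (adjusted p = 0.0228).

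The central element genes Syce1 and Syce2 had small fold changes. Syce1 measured 50.2, 48 and 47.4 CPM in control libraries, 57.9, 48.2 and 48.1 CPM in the Fam60a knockdown and 63.3, 59.4 and 57.7 CPM in the Sin3a knockdown. The Sin3a libraries were above the controls by a small margin (0.31 ± 0.13 SE, adjusted p = 0.184, and 0.0469 without replicate 3). The Fam60a value was 0.08 ± 0.13 SE (adjusted p = 0.937). Syce2 measured 61.7, 51.5 and 57.1 CPM in control cells, 46.4, 41.2 and 47.1 CPM in the Fam60a knockdown and 51.2, 50.5 and 63.4 CPM in the Sin3a knockdown. The Fam60a libraries were below the controls, but the change did not pass (-0.34 ± 0.15 SE, adjusted p = 0.319), nor did that in the Sin3a knockdown (-0.05 ± 0.15 SE, adjusted p = 0.864).

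The other 9 tested genes of this list were Sycp1, Sycp3, Syce3, Rec8, Hormad1, Dmc1, Msh4, Msh5 and Tex11. Their log2 fold changes ran from -1.21 (Msh4, a crossover factor) to 0.56 (Sycp1, the transverse filament) in the Fam60a knockdown, with adjusted p from 0.393. Those of the Sin3a knockdown ran from -0.97 (Rec8, a meiotic cohesin) to 0.78 (Sycp1), with adjusted p from 0.162. Sycp3 shares 660 of its 1264 exon bases with Chpt1 on the opposite strand, which had 2109 reads over the 9 libraries. The library kit marks strand. The strand setting of the counting is only hinted at in the names of the deposited count tables, so reads of this pair may not be told apart. Over the 17 tested genes the median log2 fold change was -0.237 for the Fam60a and -0.285 for the Sin3a knockdown, the latter 0.007 without Sin3a knockdown replicate 3.

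The 2 genes that rose in the Sin3a knockdown act in metabolism and transcription in the testis. Slc25a31, the testis ADP/ATP carrier of mitochondria, lies at chr3:40708855-40726096 on the plus strand. It measured 10.8, 7.81 and 12.1 CPM among control replicates, 20.9, 15.8 and 17.7 CPM in the Fam60a knockdown and 41.5, 34.9 and 38.2 CPM in the Sin3a knockdown. The 3 groups did not overlap and were ordered control, Fam60a knockdown, Sin3a knockdown. After Sin3a knockdown the mean was 374.1% of control (log2 fold change 1.90 ± 0.23 SE, adjusted p = 0.0024), a call that held in 18 of 18 alternatives. After Fam60a knockdown it was 177.4% (0.83 ± 0.22 SE), which passed with the replicate block (adjusted p = 0.0437) but not without it (adjusted p = 0.0901).

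Taf7l, a germ cell paralog of a subunit of the transcription factor TFIID, lies on the X chromosome at chrX:134460118-134476490 on the minus strand. It measured 10.1, 10.3 and 8.49 CPM in control libraries, 23.9, 16.4 and 11.9 CPM in the Fam60a knockdown and 42.4, 41.04 and 32.9 CPM in the Sin3a knockdown. Again the groups did not overlap and had the same order. The mean in the Sin3a knockdown was 403.1% of control (log2 fold change 2.01 ± 0.28 SE, adjusted p = 0.00425), called in 18 of 18 alternatives. After Fam60a knockdown it was 180.7% (0.85 ± 0.27 SE, adjusted p = 0.146, and 0.0668 with the block). The windows of both genes are shown because they rose and each holds an E-box. They lie at chr3:40708621-40708920 (plus strand) and chrX:134476441-134476740 (minus strand), with matches in capitals. In Slc25a31 the E-box CACGTG starts 93 bases before the start site and TCCCGC, the reverse complement of the E2F core, starts 20 bases after it. In Taf7l the E-box starts 49 bases before.
Slc25a31: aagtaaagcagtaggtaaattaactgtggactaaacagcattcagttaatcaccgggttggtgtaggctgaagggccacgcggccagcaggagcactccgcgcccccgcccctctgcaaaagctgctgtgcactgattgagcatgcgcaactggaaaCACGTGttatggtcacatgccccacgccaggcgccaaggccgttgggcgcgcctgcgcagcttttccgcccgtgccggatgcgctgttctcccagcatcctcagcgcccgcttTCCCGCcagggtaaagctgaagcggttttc
Taf7l: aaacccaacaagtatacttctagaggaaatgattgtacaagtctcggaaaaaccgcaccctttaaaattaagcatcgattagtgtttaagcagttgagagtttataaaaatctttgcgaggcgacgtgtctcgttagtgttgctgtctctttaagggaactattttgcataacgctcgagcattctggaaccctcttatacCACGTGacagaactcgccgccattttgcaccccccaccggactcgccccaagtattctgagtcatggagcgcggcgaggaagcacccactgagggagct

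E-boxes were also present in windows of genes that did not pass in either knockdown in the model of all 9 libraries. Stag3, Ddx4 and Hormad1, named after their values were seen, are examples. Tdrd7 and Sycp2, which rose in the Sin3a knockdown with the replicate block, have 0 E-boxes in their windows. Of the further genes that rose there without Sin3a knockdown replicate 3, Mael and Sycp1 have 1 each and Dazl and Syce1 have 0. Tex15, which also rose in that fit, has no window. Whether the E-box has a part in these changes was not tested.

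Tex14, a protein of the bridges between germ cells, measured 105, 103 and 66.5 CPM in control cells, 72.96, 79.05 and 31.1 CPM in the Fam60a knockdown and 49.2, 45.3 and 21.5 CPM in the Sin3a knockdown. Replicate 3 was the lowest library in each group, and the Sin3a libraries were below all controls. The log2 fold change in the Sin3a knockdown was -1.22 ± 0.40 SE (adjusted p = 0.0907, and 0.00676 with the replicate block). The Fam60a value was -0.58 ± 0.39 SE (adjusted p = 0.595). Stra8, which acts at meiotic entry under retinoic acid, measured 26.1, 19.08 and 23.4 CPM among control replicates, 8.46, 7.06 and 1.42 CPM in the Fam60a knockdown and 10.5, 11.3 and 28.8 CPM in the Sin3a knockdown. The Fam60a libraries were all below the controls, while Sin3a replicate 3 was above every control and replicates 1 and 2 below. The log2 fold changes were -2.01 ± 0.59 SE (adjusted p = 0.116, and 0.0218 without Sin3a knockdown replicate 3) and -0.47 ± 0.57 SE (adjusted p = 0.637, and -1.06 with an adjusted p of 0.162 without that library).

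Rpl10l, a testis retrogene of the ribosomal protein gene Rpl10, measured 50.2, 44.96 and 49.8 CPM in control libraries, 34.7, 26.2 and 29.6 CPM in the Fam60a knockdown and 47.4, 46.2 and 50.8 CPM in the Sin3a knockdown. The Fam60a libraries were below all others. The log2 fold change was -0.68 ± 0.16 SE in the Fam60a knockdown (adjusted p = 0.0546, and 0.0352 with the replicate block) and -0.01 ± 0.16 SE in the Sin3a knockdown (adjusted p = 0.986). The value is uncertain, since reads of near-identical copies can be split, and Rpl10 itself was listed at only 25.1, 39.8 and 29.1 CPM in the controls. Tex19.1 measured 100.3, 84.1 and 96.7 CPM in control cells, 102, 85.5 and 91.5 CPM in the Fam60a knockdown and 102, 100.5 and 136 CPM in the Sin3a knockdown. The groups overlapped apart from a high Sin3a replicate 3, and it did not pass (-0.01 ± 0.15 SE, adjusted p = 0.996, and 0.26 ± 0.15 SE, adjusted p = 0.323). The other 7 genes were Dazl, Stk31, Brdt, Meioc, Tex101, Nanos3 and Dppa3. Their log2 fold changes ran from -0.73 (Meioc, which sustains meiotic prophase) to 1.05 (Brdt, the testis bromodomain protein) in the Fam60a knockdown, with adjusted p from 0.214. Those of the Sin3a knockdown ran from -0.96 (Dppa3) to 0.70 (Brdt), with adjusted p from 0.237.

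The difference between the knockdowns was tested directly. Slc25a31 was lower in the Fam60a knockdown than in the Sin3a knockdown (log2 fold change -1.08 ± 0.22 SE, adjusted p = 0.0373), the single gene of 42 called lower, against 0.878% of all genes. With edgeR 0 were called higher, against 2.18% of all genes. Without 1 library at a time the Slc25a31 difference missed the threshold for 7 of 9 libraries, with adjusted p up to 0.153. At an unadjusted p under 0.05, 4 of the 42 were higher and 7 lower, against 9.98% and 8.16% of all tested genes. DESeq2 called 1 higher and 3 lower, against 5.24% and 3.98%. With the replicate block Taf7l (log2 fold change -1.19, adjusted p = 0.0268) and Rpl10l (-0.68, adjusted p = 0.0422) were also lower, 3 genes against a background of 1.41%, and 0 were higher, against 3.24%. Without the block Taf7l had an adjusted p of 0.0549 and Rpl10l of 0.0554. Hormad2 was at 0.81 ± 0.18 SE (adjusted p = 0.0528). Without Sin3a knockdown replicate 3, 1 gene was higher (Hormad2, adjusted p = 0.014) against 8.49% and 9 were lower against 6.21%. The 9 were Asz1, Dazl, Hormad1, Mael, Meioc, Rpl10l, Slc25a31, Smc1b and Taf7l. For Tdrd12 the difference was 0.24 ± 0.26 SE (adjusted p = 0.655), so the sizes of its fall were not shown to differ.

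Sin3a knockdown replicate 3 departed from its group in many of these genes, and the departure moved with base composition. Of 42 genes, 15 were more than 1 log2 unit below the mean of replicates 1 and 2 there, and 4 more than 1 above (35.7% and 9.52%, against 18.8% and 13.2% of all genes). In the Fam60a knockdown replicate 3 the number below was 7 (16.7%, against 4.66%) and in control replicate 3 it was 1 (2.38%, against 1.1%). Across the 42 genes, which share these libraries, Spearman's rho between GC content and the departure was 0.736, against 0.553 over 14126 genes. The 21 genes of lower GC content had a median departure of -1.50 and the 21 of higher GC content 0.09. Sycp1, Hormad1 and Dazl were about 3 log2 units low there. Without that library 6 of the 42 fold changes in the Sin3a knockdown turned from negative to positive (14.3%, against 23.3% of all genes turning in either direction), none of them called in either model. They were Hormad1 (-0.10 to 0.37), Sycp3 (-0.19 to 0.10), Msh4 (-0.24 to 0.13), Dmc1 (-0.29 to 0.06), Stk31 (-0.04 to 0.30) and Tex11 (-0.43 to 0.01). The genes with no large departure in that library included Slc25a31, Taf7l and Hormad2. The other genes called in the Sin3a knockdown were low there, Mei4 with a departure of -1.87 and Tdrd12 with -0.724. Without that library their log2 fold changes in the Sin3a knockdown were -1.73 and -1.48, and both remained called (edgeR adjusted p = 0.00523 and 0.00124). The part of base composition in the results was not tested beyond a fit with GC correction, in which all 5 genes called in the Sin3a knockdown (Tdrd12, Hormad2, Mei4, Slc25a31 and Taf7l) remained called and Mael was called higher (3 higher and 3 lower, against 6.7% and 7.94% of all genes).

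**Figure D4:**
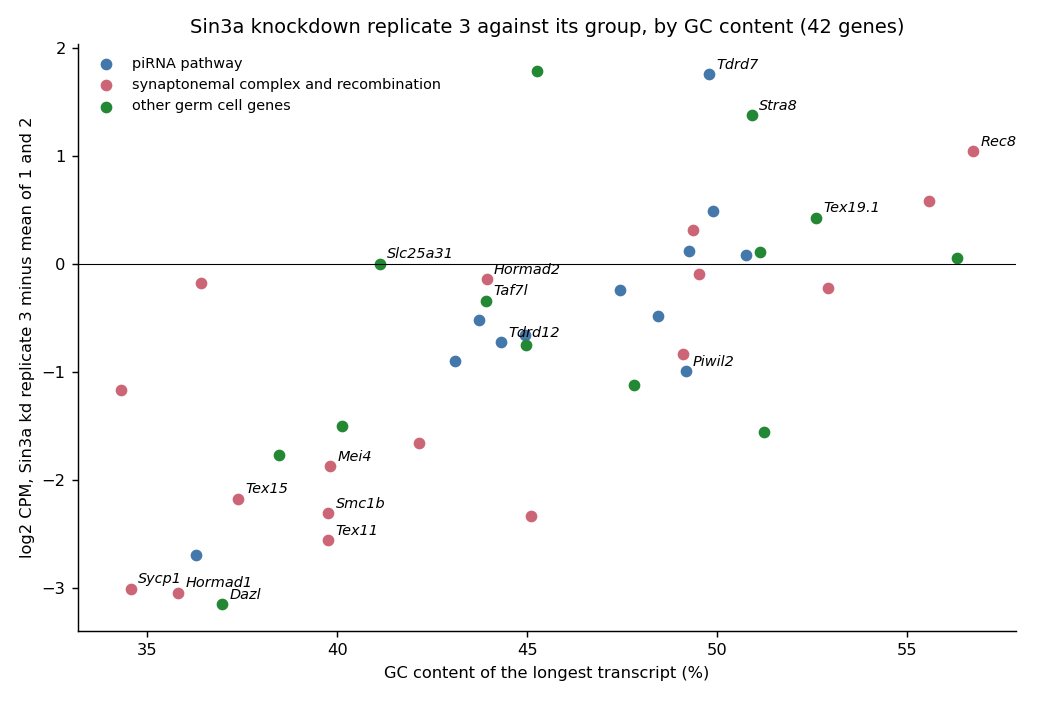
Log2 CPM of Sin3a knockdown replicate 3 minus the mean of replicates 1 and 2 (y axis) against GC content of the longest transcript (x axis, percent) for the 42 tested genes. Genes of low GC content lie mostly below 0. Slc25a31, Taf7l and Hormad2, which are also below the median GC content of 45%, lie close to 0, and Mei4 lies well below it.

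Further genes of the same pathways were read from wider lists. Of 25 tested further germ cell genes, 4 fell and 1 rose in the Fam60a knockdown, where 1.44% of all genes fell and 1.49% rose. The counts were 9 and 1 of 26 without Sin3a knockdown replicate 3, against 7.77% and 9.16%. At an unadjusted p under 0.05, 8 were lower and 2 higher, against 7.68% and 8.03% of all genes. DESeq2 called 7 and 1, against 3.91% and 4.27%. Prdm1, a repressor that specifies primordial germ cells, went from 50.5, 48.3 and 45.9 CPM in control libraries to 23.9, 18.1 and 15.3 CPM (adjusted p = 0.0134). The GDNF co-receptor Gfra1 went from 15.8 ± 4.64 to 3.40 ± 1.47 CPM (SD, n = 3, edgeR adjusted p = 0.0251) and the testis lactate dehydrogenase Ldhc from 7.96 ± 1.08 to 2.29 ± 0.351 CPM (adjusted p = 0.0282). The fourth to fall was Prdm14, and Dkkl1, an acrosomal protein, rose from 4.41 ± 0.451 to 10.9 ± 2.21 CPM (adjusted p = 0.0434).

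In the Sin3a knockdown 5 of these 25 genes fell and 0 rose with edgeR, against 6.28% and 3.91% of all genes. At an unadjusted p under 0.05, 8 were lower and 2 higher, against 13.8% and 12%. DESeq2 called 7 and 1, against 9.18% and 8.19%. With Sin3a knockdown replicate 3 left out, 8 of 26 fell and 1 rose, against 13.5% and 11%. Prdm1 measured 10.9 ± 1.18 CPM (adjusted p = 0.00174), the zona pellucida gene Zp3 went from 18.9 ± 2.93 to 5.70 ± 1.71 CPM (adjusted p = 0.00675) and Ldhc measured 1.59 ± 0.737 CPM (adjusted p = 0.00726). The others were Ifitm1 and Tcl1, and with the replicate block Gfra1 and Prdm14 fell too, 7 of 25 against 8.63% of all genes. In the direct test of the knockdowns edgeR called Zp3, higher in the Fam60a knockdown, against 2.18% of all genes. DESeq2 called 3 higher and 1 lower there, against 5.24% and 3.98%. Ifitm1, Prdm1 and Zp3 were higher and Uchl1 lower without Sin3a knockdown replicate 3, against 8.49% and 6.21%.

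Of 23 further meiosis genes, 2 fell in the Sin3a knockdown, a share near the 6.28% of all genes. Leaving out Sin3a knockdown replicate 3, 7 fell and 2 rose there, against 13.5% and 11%, and 5 fell in the Fam60a knockdown, against 7.77%. Majin, which attaches meiotic telomeres to the nuclear envelope, went from 12.1 ± 0.304 to 1.74 ± 0.829 CPM (adjusted p = 0.00928). Ccdc36, also called Iho1 and a partner of Mei4, went from 12.6 ± 0.679 to 4.02 ± 2.15 CPM (adjusted p = 0.0283). In the Fam60a knockdown with all libraries, 0 of the 23 passed with DESeq2 or with edgeR without the block. There 4 were lower at an unadjusted p under 0.05, against 7.68% of all genes, and with the replicate block Hfm1 fell, against 2.72%. In the Sin3a knockdown the block added a fall of Hsf2bp and a rise of Tex12, 3 fallen against 8.63% and 1 risen against 6.33%. Of 11 further piRNA genes, 0 passed with edgeR in either knockdown with all libraries and no block. With Sin3a knockdown replicate 3 left out, Exd1, Pld6 and Pnldc1 were lower after Sin3a knockdown, against 13.5% of all genes. That fit also called Fkbp6 higher and Morc1 lower after Fam60a knockdown, against 9.16% and 7.77%. After Sin3a knockdown, with all libraries, 4 of the 11 were lower at an unadjusted p under 0.05, against 13.8% of all genes. DESeq2 also called 4 lower, against 9.18%. With the block Exd1 (adjusted p = 0.0222), Piwil1 (0.021) and Pld6 (0.0384) were lower, against 8.63%. After Fam60a knockdown 1 was higher at an unadjusted p under 0.05 and 0 by DESeq2, against 8.03% and 4.27%.

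Of 28 genes known to repress germline genes, among them subunits of the Polycomb complex above and DNA methyltransferases, 1 rose in the Sin3a knockdown, near the 3.91% of all genes. Dnmt3b, a de novo DNA methyltransferase, went from 245 ± 44.3 to 375 ± 50.2 CPM (adjusted p = 0.0396). DESeq2 called 3 higher, against 8.19% of all genes. With the replicate block Yaf2 also rose and Tfdp2 fell, 2 risen against 6.33% and 1 fallen against 8.63%. Without Sin3a knockdown replicate 3, 4 were higher and 1 lower in the Sin3a knockdown, against 11% and 13.5%, and 3 and 4 in the Fam60a knockdown, against 9.16% and 7.77%. In the Fam60a knockdown with all libraries, 0 passed with DESeq2 or with edgeR without the block. At an unadjusted p under 0.05, 4 were higher and 1 lower, against 8.03% and 7.68% of all genes. Dnmt3b rose with the replicate block (adjusted p = 0.0376), against 3.41%. E2f6 measured 59.5, 55.8 and 55.1 CPM among control replicates, 75.7, 65.96 and 75.6 CPM in the Fam60a knockdown and 70.1, 70.4 and 77.2 CPM in the Sin3a knockdown. All 6 knockdown libraries were above the controls, and neither value passed with edgeR on all 9 libraries without the block (log2 fold change 0.35 ± 0.12 SE, adjusted p = 0.187, and 0.35 ± 0.12 SE, adjusted p = 0.109). Both edgeR values passed without Sin3a knockdown replicate 3 (0.36, adjusted p = 0.0176, and 0.31, adjusted p = 0.0367). With all 9 libraries DESeq2 called E2f6 higher in the Sin3a knockdown, as 1 of the 3 above, and not in the Fam60a knockdown. E2f6 was named after its values were seen, as the factor of the motif searched.

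Markers of other cells were summed in each library. The 10 markers of embryonic stem cells all had reads, at 1659.7 to 1827.0 CPM in control libraries, 1412.8 to 1592.9 in the Fam60a knockdown and 1614.5 to 1762.8 in the Sin3a knockdown. The 17 markers of primitive endoderm, an early lineage that such cultures can form, summed to 1735.7, 2203.1 and 4205.6 CPM in the controls. They summed to 3500.7, 3515.8 and 5309.1 CPM in the Fam60a knockdown and to 4150.4, 4002.9 and 8388.4 CPM in the Sin3a knockdown. Replicate 3 was highest in each group, and each knockdown was above the control of its own number. Of 15 tested, edgeR called 1 (Gata6) higher in the Sin3a knockdown and 11 with the block, against 0 and 4 in the Fam60a knockdown. At an unadjusted p under 0.05, 10 were higher in the Sin3a and 3 in the Fam60a knockdown, against 12% and 8.03% of all genes. DESeq2 called 8 and 2, against 8.19% and 4.27%. Of all genes 3.91% and 6.33% were higher in the Sin3a knockdown without and with the block, and 1.49% and 3.41% in the Fam60a knockdown. Without Sin3a knockdown replicate 3 and with no block, Gata6 was the 1 called in each knockdown. The 12 markers of the two-cell-like state summed to 313.4 to 389.5 CPM in control cells, 260.0 to 318.0 in the Fam60a knockdown and 167.4 to 270.0 in the Sin3a knockdown. The 12 fibroblast markers summed to 63.9 to 110.9, 63.6 to 82.4 and 43.8 to 100.7 CPM. Of the stem cell, two-cell-like and fibroblast markers, Fgf4 and Thy1 were called lower and Twist1 higher in the Sin3a knockdown. With the block Usp17lc, Zscan4c, Zscan4d, Col6a3 and Pdgfrb were also lower there. Of all genes 6.28% were lower and 3.91% higher without the block, and 8.63% were lower with it. In the Fam60a knockdown edgeR called 0 of these markers with all 9 libraries, with or without the block. There 4 were lower and 1 higher at an unadjusted p under 0.05, against 7.68% and 8.03% of all genes. DESeq2 called 1 lower, against 3.91%. Without Sin3a knockdown replicate 3, Fgf4, Nanog, Acta2 and Col1a1 were lower and Twist1 higher in the Fam60a knockdown, against 7.77% and 9.16%. In the Sin3a knockdown that fit called Twist1 higher, against 11%. It called Fgf4, Thy1, Col1a1, Col6a3, Gm8300, Sp110, Tmem92, Usp17lc and Zscan4c lower, against 13.5%. Every marker of these lists had reads in at least 1 library. The part of these cells in the results on the germline genes was not tested.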

How the data were processed

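Whole-number counts of reads per Ensembl gene, without normalization, were used as the authors deposited them, in 1 table per library. Per the labels, libraries of total RNA were made with the TruSeq Stranded kit and read as single ends of 50 bases. STAR 2.4.0j, Picard, featureCounts and Subread are named in the submitters' processing notes, and per the file headers duplicate reads had been removed, which limits the reads of highly expressed genes. The genome build and annotation used for counting are not given in the sources used here. Reads without molecular tags need not be independent molecules.

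Symbols, positions, exon lengths and GC content came from GENCODE M21 (GRCm38), which matched 32937 of 37990 genes by ID, and all 45 genes studied. The count analysis used edgeR 4.0.16 under R 4.3.3. Genes were kept by filterByExpr, scaled by TMM, and tested by quasi-likelihood (robust) in a single model of the 9 libraries and 3 groups. A gene was called at an adjusted p under 0.05 over 14465 genes (Benjamini-Hochberg), and the biological coefficient of variation was 0.25. Log2 fold changes are coefficients of this fit. Log CPM values used a prior count of 2. With 3 libraries per group, p-values measure the spread between these libraries. The script was tested on simulated data.

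Replicate numbers paired the samples: deviations from group means correlated at r = 0.178 to 0.622 in 9 of 9 same-number pairs and -0.448 to 0.113 in others, across genes, which are not independent. The labels do not say what a number shares.

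Alternatives were a replicate block, GC correction (with and without the block), RLE and upper quartile scaling, no filter on low counts, DESeq2 1.42.0, each comparison's own 6 libraries, and leaving out each library. Leaving out all libraries numbered 3 was added after seeing the data. The members and lists were chosen with earlier results of these data known. Library values are given for members called in any comparison with or without the block, with an unadjusted p under 0.01, or among the 3 highest per length in each list, and for up to 3 called genes per direction of the further lists. No gene was found for 16 entries of the lists, some of them under another name.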

Additional observations from a re-analysis of the deposited data

Results flagged for a closer look

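Slc25a31 differed between the knockdowns in the direct test, with a log2 fold change of -1.08 in the Fam60a knockdown against the Sin3a knockdown (edgeR adjusted p = 0.0373). It was higher than control in all 3 libraries of both groups, and the libraries of the Sin3a knockdown (34.9 to 41.5 CPM) lay above those of the Fam60a knockdown (15.8 to 20.9 CPM).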

How the results depend on the processing

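All alternatives listed with the processing could be run. The fold changes of members called with edgeR, with or without the replicate block, kept their sign in all of them. Of the tested members, 0 to 5 turned sign in any one alternative in the Fam60a knockdown, 0 to 6 in the Sin3a knockdown and 0 to 4 between the knockdowns, and 0 of these were called there with all libraries. Counts are given as members, then all genes, higher and lower. With the replicate block, Fam60a knockdown against control gave 1 and 4 members and 493 and 394 genes, Sin3a knockdown against control gave 4 members and 916 genes higher, and Fam60a against Sin3a knockdown gave 3 members and 204 genes lower. With GC correction the first gave 1 and 4 members and 385 and 343 genes, the second 969 genes higher, and the third 3 members lower and 497 and 324 genes. With GC correction and the replicate block the values were 1 and 7 members and 954 and 737 genes, then 5 and 5 members and 1631 and 1700 genes, then 3 and 4 members and 878 and 687 genes. DESeq2 gave 3 and 6 members and 616 and 565 genes, then 4 members and 1182 genes higher, then 1 and 3 members and 757 and 575 genes. Fits of each comparison's own 6 libraries gave 2 and 6 members and 1019 and 808 genes, then 1 member lower and 229 and 510 genes, then 0 members lower and 0 and 0 genes. Without a filter on low counts 0 members were lower in the Fam60a against the Sin3a knockdown, and upper quartile scaling gave 1 higher. The other counts of these alternatives were within 1.5 times those reported, and the cause of the differences was not tested.

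Leaving out each library, or all libraries numbered 3, gave 0 to 6 members higher and 0 to 9 lower in the Fam60a knockdown (6 to 1499 and 5 to 1145 genes). The Sin3a knockdown gave 2 to 9 and 1 to 9 members (173 to 2171 and 343 to 2246 genes), and Fam60a against Sin3a knockdown 0 to 6 and 0 to 9 (39 to 1704 and 6 to 1081 genes). The highest counts came without Sin3a knockdown replicate 3 or without all libraries numbered 3. Depth limits the genes near 3 reads, such as Spo11, Tdrd6 and Meiob. The replicate block changed no call of the members beyond those given with the results.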
